A study of Equus caballus with 25 samples.

Results

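Gene expression at the beginning of oestrus, 16 days after ovulation, was compared with that of the early luteal phase, 3 days after ovulation, in the endometrium of the horse. The endometrium is the lining of the uterus. The 10 arrays compared, of 25 in the series, were those whose titles name day 16 or day 3, with 5 mares at each day. All mares were normally cycling Bavarian Warmblood horses; the labels give no treatment and no ages. Ovulation was followed by daily palpation and ultrasound, and 1 biopsy per mare and day was taken through the cervix, over more than 1 cycle, with at least 9 days between biopsies of the same cycle. The day 16 group is labelled as the start of the ovulatory phase and the day 3 group as the early luteal phase. The same 5 mares gave both groups, so each day 16 array was paired with the day 3 array of its mare. A biopsy holds glands, surface epithelium, stroma, vessels and immune cells, and in such bulk samples fewer cells of a type and less RNA per cell cannot be told apart. The other 15 arrays, of days 0, 8 and 12 in the same mares, entered the estimate of the error and of the mares' own levels. They also entered the description of the cycle and the choice of the brightest probe that stands for each gene.

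After ovulation the follicle becomes the corpus luteum, which secretes progesterone, so that at day 3 progesterone is rising under the remaining influence of oestrogen. Later in the cycle, prostaglandin F released by the endometrium ends the corpus luteum, progesterone falls, and oestrogen from the next follicle rises. Both days therefore stand at a turn of the cycle, with the hormones moving in opposite directions. Progesterone induces secretion by the uterine glands, and oestrus is known as a time of active uterine defence. No hormone was measured in the files used here.

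Each array held 43803 spots of 43603 probes. The 75th percentile of an array's signal lay between 875 and 3701 at day 16 and between 1601 and 2492 at day 3, and it was higher at day 16 in 4 of 5 mares. Between 73.2% and 86.2% of the spots were well above background at day 16, and between 75.8% and 84.3% at day 3. The median correlation of an array with the others of its day was 0.952 to 0.970 at day 16 and 0.957 to 0.973 at day 3, and no array was set aside. The number of arrays limits the precision of every value. All levels below are log2 signals relative to the 75th percentile of the array, listed for mares 1 to 5 in that order, and each change is day 16 minus day 3 on the log2 scale with its moderated standard error. The tests are limma's two-sided moderated tests with Benjamini-Hochberg adjustment over 34167 probes, with day and mare in the model. An adjusted p under 0.05 counts as a pass.

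The spread between mares was larger on the days compared than in the middle of the luteal phase. The median SD of a probe over the 5 mares was 0.495 at day 16 and 0.435 at day 3, against 0.279 at day 8 and 0.341 at day 12. A model of all 25 arrays shares 1 spread over the 5 days. The median standard error of a change was 0.247 in that model and 0.272 with the 10 arrays alone, although for some genes, such as CHGA (0.85 and 0.54), the model of 25 arrays had the larger error. The adjusted p of a model of the 10 arrays alone is given beside that of all 25. For 51 called genes followed in alternative runs, the p with a weight per day, chosen after seeing the data, is given where it ended a call. "Rose" and "fell" refer to the model of all 25 arrays, and a gene passed with the 10 arrays alone where the later p is also under 0.05.

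Of 34167 probes tested, 6308 (18.5%) differed between the days, 3150 of them higher (9.22%) and 3158 lower (9.24%) at day 16. By at least 2-fold, 1683 were higher and 1168 lower. With the 10 arrays alone 1767 probes passed (5.17%), 1013 higher (2.96%) and 754 lower (2.21%), and 1739 passed in both models. Of the 6308 probes, 5046 moved the same way in all 5 mares, as did 21.9% of all probes. The values of the days did not overlap for 8.37% of all probes. The direction was that of the pooled change for 92.6% of the 6308 probes in mare 1, 97.8% in mare 2, 95.6% in mare 3, 95% in mare 4 and 98.5% in mare 5. These shares are descriptions, since each mare's own arrays also entered the fit that called the probes. The slide, a batch of up to 4 arrays, held both days for mares 1, 4 and 5. Among probes called without the arrays of such a slide, 79.3%, 80.6% and 94.1% went the same way within the slides of mares 1, 4 and 5. On a further slide, which held day 16 of mare 2 and day 3 of mare 3, 91.4% did.

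Over the whole cycle, the probes that were higher at day 16 had their highest mean of the 5 days at day 16 in 1936 cases, at day 12 in 655, at day 0 in 408 and at day 8 in 151. Their lowest mean was at day 3 in 2065 of 3150. Of the 3158 probes that were lower at day 16, 2329 had their highest mean at day 3 and 1220 their lowest at day 16. The mean at day 0, which follows day 16 in the cycle, lay between those of days 16 and 3 for 77.1% of the higher and 69% of the lower probes. These are descriptions, since the means of days 16 and 3 also chose the probes.

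A symbol was available for 491 tested genes, each represented by its brightest probe. Of these, 64 rose (13.0%) and 37 fell (7.54%), which makes 101 (20.6%), and 32 passed with the 10 arrays alone (6.52%), 23 as higher (4.68%) and 9 as lower (1.83%). The values of the 2 days did not overlap for 52 of the 491 (10.6%), and 28.9% moved the same way in all 5 mares. The median change of all 491 was 0.06 and that of all probes 0.00, so the medians of the gene groups below are read against values near 0.

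Among secreted proteins of the uterus, transcripts of chromogranin A, retinol-binding protein and the GM2 activator were higher at day 16, while beta-lactoglobulin was lower. CHGA, which encodes chromogranin A, a protein of the granules of hormone-secreting cells, had levels of -0.25, 3.07, 4.10, 1.38 and 3.10 at day 16, against -8.29, -7.64, -7.51, -7.30 and -7.87 at day 3. The days lay far apart in every mare, and at day 3 the probe was well above background on 1 of 5 arrays only. CHGA rose (adjusted p = 1.04e-06, and 0.00275 with the 10 arrays alone), and 4 of 4 further probes passed in the same direction. The size of the rise is uncertain because the day 3 signals were mostly at background. The fitted difference was 1024-fold, with a standard error of 0.85 on the log2 scale, and the log2 change was 7.13 after normexp background correction, which adds an offset that shrinks the changes of dim probes. Over the cycle the mean of CHGA, over 5 mares, was -4.70 at ovulation and lowest at day 3, with -6.79 ± 1.25 on day 8, -1.52 ± 2.45 on day 12 and 2.28 ± 1.72 (SD, n = 5) on day 16, the highest of the 5 means.

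RBP4, the carrier of retinol, had levels of 2.45, 3.81, 4.97, 4.41 and 4.87 at day 16, against -0.03, 0.40, 0.37, 1.51 and -0.06 at day 3. Every day 16 array was above every day 3 array, with the lowest day 16 value in mare 1. RBP4 rose by 3.66 ± 0.48 (adjusted p = 5.95e-05, and 0.0112 with the 10 arrays alone), as did 3 of 3 further probes. GM2A, a carrier of glycolipids in lysosomes, was at 0.23, 0.68, 0.03, 0.89 and 1.25 at day 16, against -1.58, -1.82, -1.93, -1.91 and -1.98 at day 3, again without overlap, and rose by 2.46 ± 0.27 (adjusted p = 1.13e-05, and 0.0112 with the 10 arrays alone). LGB1, a lipocalin otherwise known from milk, was at -7.60, -9.12, -9.50, -7.56 and -7.60 at day 16, against -4.79, -6.47, -6.33, -7.14 and -3.76 at day 3. It was well above background on 1 of 5 arrays at day 16 and on 4 of 5 at day 3, and changed by -2.57 ± 0.48 (adjusted p = 0.000997, and 0.0319 with the 10 arrays alone). After normexp its change was -0.77 (adjusted p = 0.0693).

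P19, the gene of uterocalin, a lipocalin that the glands of the mare secrete in the luteal phase, did not pass. It was at 4.81, 6.87, 5.54, 6.73 and 7.80 at day 16, against 6.64, 5.14, 4.89, 4.03 and 7.02 at day 3, and was higher at day 16 in 4 of 5 mares. The exception was mare 1, and the change was 0.81 ± 0.48 (adjusted p = 0.277, and 0.497 with the 10 arrays alone). Of 11 tested secretory genes, of 34 in the list, 3 rose (RBP4, GM2A and B2M), 2 fell (LGB1 and the kallikrein KLK1E2) and 6 did not pass, with a median of 0.49. With the 10 arrays alone 3 rose and 1 fell. KLK1E2 changed by -1.59 ± 0.44 (adjusted p = 0.0151, and 0.175 with the 10 arrays alone) and was lower in 4 of 5 mares. The extracellular peroxidase GPX3 was at 0.76 ± 0.36, clusterin (CLU) at 0.02 ± 0.22 and transferrin (TF) at 0.13 ± 0.29, none of which passed.

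**Figure D1:**
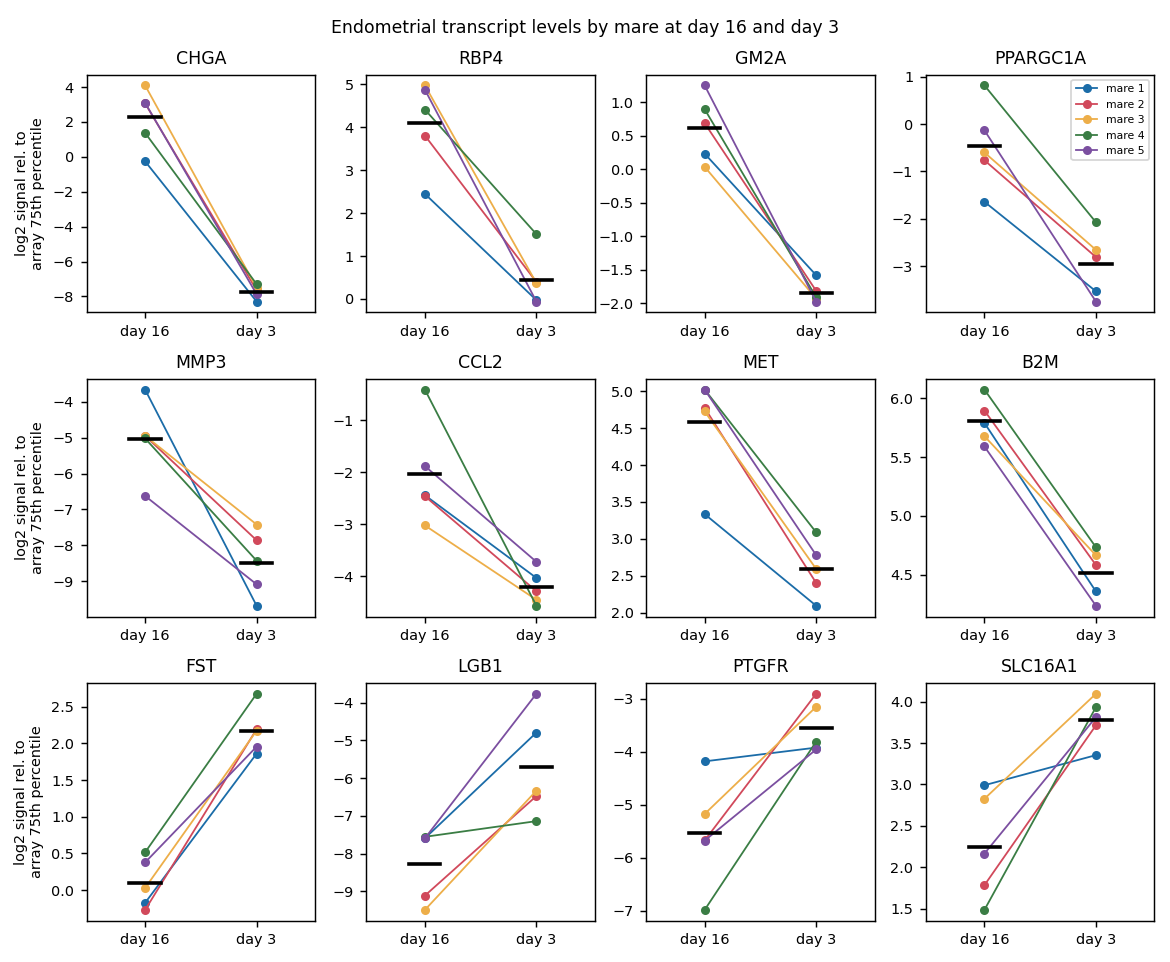
Level of 12 genes in each mare (y axis, log2 signal relative to the 75th percentile of the array) at day 16 and day 3, with a coloured line per mare and a black bar at the mean of 5 mares. In each panel all 5 lines run the same way, down towards day 3 for the 8 genes in the first 2 rows and up for FST, LGB1, PTGFR and SLC16A1. All of these genes but B2M were named by a rule that required the same direction in all 5 mares.

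Among receptors, that of prostaglandin F was lower at day 16, and the oestrogen receptor did not pass. PTGFR encodes the receptor through which prostaglandin F acts, and its levels were -4.18, -5.67, -5.17, -6.98 and -5.67 at day 16, against -3.92, -2.90, -3.15, -3.81 and -3.95 at day 3. The groups did not overlap, although mare 1 differed by little. PTGFR fell by 1.99 ± 0.37 (adjusted p = 0.00104, and 0.0434 with the 10 arrays alone), with a change of -1.31 after normexp, and day 16 had the lowest of its 5 means over the cycle. ESR1, the oestrogen receptor alpha, was at 7.30, 6.50, 6.47, 5.53 and 6.54 at day 16, against 5.86, 7.05, 7.04, 6.87 and 6.54 at day 3. It was higher at day 16 in mare 1, lower in mares 2, 3 and 4, and nearly equal in mare 5. The change of ESR1 was -0.20 ± 0.26 (adjusted p = 0.676, and 0.836 with the 10 arrays alone), and 0 of 5 further probes passed. IGF1, a growth factor of the stroma, was at -0.10 ± 0.39 (adjusted p = 0.908, and 0.907 with the 10 arrays alone). PGRMC1, a membrane protein that binds haem and progesterone, was at -0.43 ± 0.20, and RARB, a retinoic acid receptor, at 0.60 ± 0.23. These 4 genes were the tested ones among 25 listed receptors and response genes, and 0 passed.

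In prostaglandin synthesis, a cytosolic phospholipase of precursor release was higher at day 16, while a secretory phospholipase did not pass. PLA2G4A, the cytosolic phospholipase that releases arachidonic acid, was at -0.06, 0.59, 0.18, 1.48 and 0.53 at day 16, against -0.72, -0.56, -0.31, -0.15 and -0.47 at day 3. The groups did not overlap and PLA2G4A rose by 0.98 ± 0.29 (adjusted p = 0.0216, and 0.0563 with the 10 arrays alone). Its call ended without the day 16 array of mare 4 (adjusted p = 0.0756) and without the day 3 array of mare 1 (0.0655), and without mare 2 (0.0957) or mare 5 (0.0938), or with a weight per day (0.091). PTGS2, the inducible cyclooxygenase, was at 1.35, 0.12, 0.42, 2.88 and 1.12 at day 16, against -0.08, 1.31, 0.06, -0.93 and -0.27 at day 3. It was lower at day 16 in mare 2 and higher in the other 4 mares, with a change of 1.16 ± 0.46 (adjusted p = 0.0905, and 0.342 with the 10 arrays alone), although its 2 further, dimmer probes passed as higher. PTGES, a prostaglandin E synthase, was at -0.16 ± 0.37, HPGD, which inactivates prostaglandins, at 0.22 ± 0.30, the prostaglandin E receptor PTGER2 at -0.21 ± 0.37 and the secretory phospholipase PLA2G2A at -0.15 ± 0.42. Of 8 tested members of a list of 22, 1 rose, 1 fell and 6 did not pass, with a median of -0.16.

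Follistatin, the electron donor of the cytochromes P450 and a cortisol-inactivating enzyme were lower at day 16. FST encodes follistatin, which binds and blocks activin, and its levels were -0.18, -0.27, 0.03, 0.51 and 0.38 at day 16, against 1.86, 2.19, 2.17, 2.68 and 1.96 at day 3. The spread within each day was small beside the gap between them. FST fell by 2.08 ± 0.19 (adjusted p = 1.88e-06, and 0.0096 with the 10 arrays alone); its means over the cycle were highest on day 8 (3.25 ± 0.14) and lowest on day 16. INHBA, the subunit shared by activin A and inhibin A, was at 1.12 ± 0.49, and INHA, the inhibin alpha subunit, at -0.74 ± 0.27, neither of which passed. FST was the 1 gene that passed among 4 tested of 21 listed for this family.

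POR, which passes electrons to all microsomal cytochromes P450, was at 0.57, 0.32, 0.86, 0.29 and 0.36 at day 16, against 2.10, 1.96, 1.48, 1.24 and 2.11 at day 3, without overlap. POR fell by 1.30 ± 0.32 (adjusted p = 0.0079, and 0.0344 with the 10 arrays alone), and did not pass without all arrays of mare 5 (adjusted p = 0.0699) or with a weight per day (0.0519). HSD11B2, which converts cortisol to inactive cortisone, was at -3.64, -2.55, -4.43, -5.63 and -4.97 at day 16, against -1.73, -2.49, -2.73, -3.43 and -1.48 at day 3, and fell by 1.87 ± 0.42 (adjusted p = 0.00384, and 0.0586 with the 10 arrays alone). The values of the days overlapped through mare 2, in which they were nearly equal. CYP2E1, a cytochrome P450 that oxidises small molecules such as ethanol, went the other way, with -4.24, -1.73, -1.43, -3.29 and 1.20 at day 16, against -4.93, -5.03, -5.65, -6.79 and -6.62 at day 3. CYP2E1 rose by 3.90 ± 0.82 (adjusted p = 0.00247, and 0.0494 with the 10 arrays alone), with the widest gap in mare 5 and the narrowest in mare 1, as did 4 of 4 further probes. Of 11 tested genes of steroid and sterol synthesis, of 29 listed, 0 rose, HSD11B2 and POR fell and 9 did not pass, with a median of -0.12. The aromatase CYP19A1 was at 0.08 ± 0.48 and the steroid dehydrogenase HSD3B2 at -1.30 ± 0.48. Of 5 tested P450 oxidation genes, of 17 listed, 1 rose, 1 fell (POR again) and 3 did not pass.

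**Figure D2:**
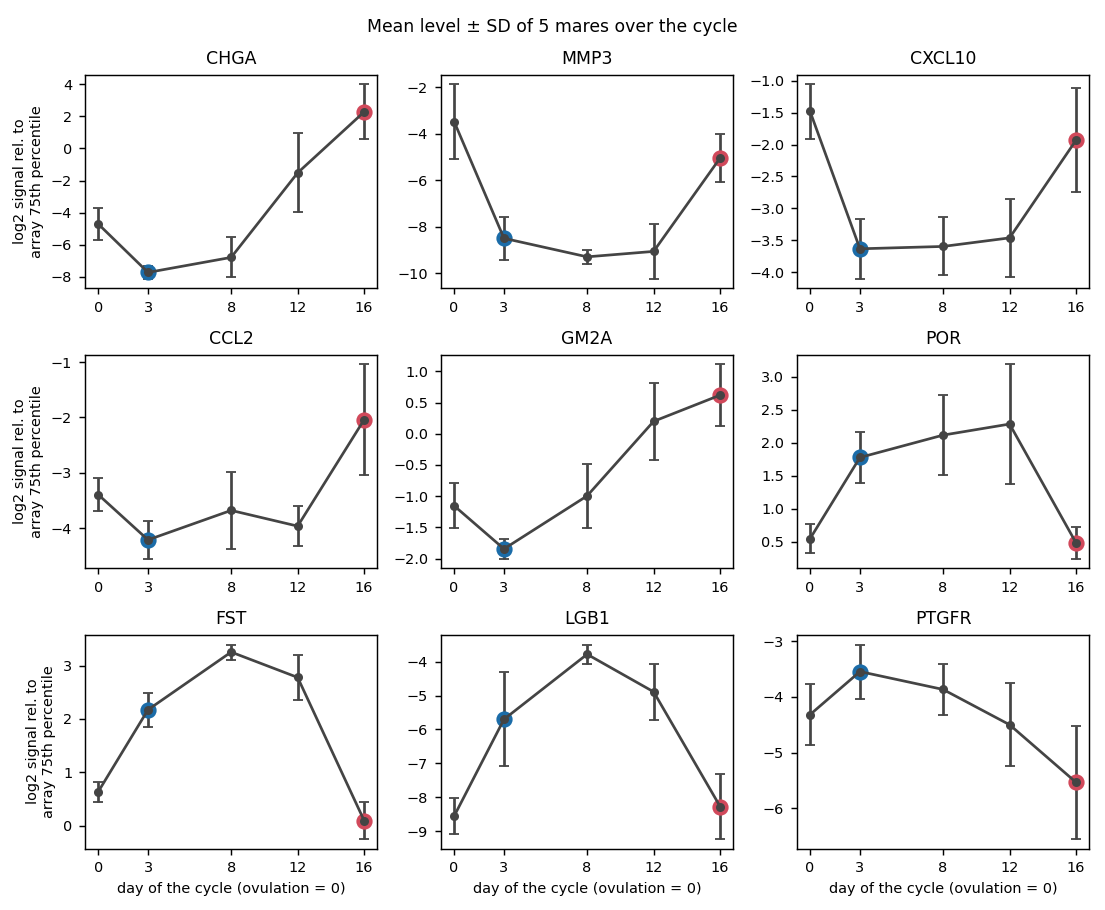
Mean level ± SD of 5 mares (y axis, log2 signal relative to the 75th percentile of the array) of 9 genes at days 0, 3, 8, 12 and 16 of the cycle, with day 16 in red and day 3 in blue. CHGA climbs from day 8 to day 16, MMP3, CXCL10 and CCL2 are low from day 3 to day 12 and higher at day 16, and FST and LGB1 peak at day 8 and are low again at day 16. At day 0, the means of MMP3 and CXCL10 are above those of day 16, and that of CCL2 is below.

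The matrix proteases MMP3 and MMP26 and the inhibitor TIMP1 were higher at day 16. MMP3, stromelysin, which cleaves proteoglycans and activates other proteases of its family, was at -3.66, -4.95, -4.95, -5.02 and -6.62 at day 16, against -9.69, -7.86, -7.42, -8.43 and -9.09 at day 3. It was well above background on all 5 arrays at day 16 and on none at day 3, so the mean of MMP3 over the mares was at least 4.98-fold higher at day 16. This is a bound on the mean, and it does not hold for each mare. For this bound, each day 3 array was given its detection limit (the dimmest signal called well above background there) or MMP3's own signal, whichever was higher. The fitted change was 3.46 ± 0.67 (adjusted p = 0.00137, and 0.0212 with the 10 arrays alone), and it was 0.79 (adjusted p = 0.167) after normexp with its offset. MMP3 averaged -3.47 ± 1.60 at day 0, and on days 8 and 12 it was above background on 0 and 1 of 5 arrays.

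TIMP1, an inhibitor of matrix metalloproteases, was at 1.01, 2.46, 3.05, 3.62 and 2.21 at day 16, against 0.75, 0.53, 0.63, 0.77 and 1.11 at day 3, and rose by 1.71 ± 0.31 (adjusted p = 0.000863, and 0.051 with the 10 arrays alone), as did 4 of 4 further probes. The lowest day 16 value, that of mare 1, lay within the day 3 range, and the other 4 lay above it. MMP26, a small member of the family, rose by 1.02 ± 0.33 in 4 of 5 mares (adjusted p = 0.0368, and 0.149 with the 10 arrays alone), and its call ended without any 1 of 7 of the 10 arrays (adjusted p up to 0.127, without the day 16 array of mare 5). The call also ended without all arrays of mare 2, 3, 4 or 5 (up to 0.179, without mare 5) and with a weight per day (0.0775). Of 8 tested proteases and inhibitors, of 26 listed, these 3 rose (1 with the 10 arrays alone) and 5 did not pass, with a median of 0.70. MMP9, a gelatinase, was at -0.27 ± 0.45, MMP13, a collagenase, at 1.77 ± 0.92 and TIMP3 at 0.38 ± 0.26.

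Of the genes of the matrix itself, SPARC, a matrix protein that binds collagen and calcium, was at 5.46 ± 0.24 at day 16 and 4.84 ± 0.33 at day 3 (SD, n = 5 each) and rose by 0.62 ± 0.15 in all 5 mares (adjusted p = 0.00867, and 0.109 with the 10 arrays alone), with 2 of 7 further probes passing, but not without mare 5 (0.0501). DCN, the collagen-binding proteoglycan decorin, rose by 0.71 ± 0.23 in 4 of 5 mares (adjusted p = 0.0348, and 0.226 with the 10 arrays alone), but its call ended without any 1 of 5 of the 10 arrays (adjusted p up to 0.129, without the day 3 array of mare 1) and without the mare block (0.0716). Without mare 1 the change of DCN was 0.45 (adjusted p = 0.205), and its call also ended without mare 4 (0.0673) or mare 5 (0.152). With a weight per day the adjusted p of DCN was 0.0974. LUM, the related proteoglycan lumican, was at 0.84 ± 0.30 (adjusted p = 0.0598) and BGN, biglycan, at -0.11 ± 0.23. COL5A2, a collagen V chain, rose by 0.63 ± 0.18 (adjusted p = 0.0197, and 0.16 with the 10 arrays alone), but not with quantile normalization (0.54, adjusted p = 0.099) or normexp (0.29, 0.245), or without day 16 of mare 3 (0.0709) or day 3 of mare 2 (0.0658). The call of COL5A2 also ended without all arrays of mare 2 (0.0911) or mare 3 (0.0625). COL11A1, a collagen XI chain, changed by -1.76 ± 0.60 (adjusted p = 0.0464, and 0.0755 with the 10 arrays alone), and its call ended without any 1 of 6 of the 10 arrays. Without the day 16 array of mare 5 its change was -1.09 (adjusted p = 0.162), and after normexp -0.81 (0.0915). The call of COL11A1 also ended without all arrays of mare 2, 3, 4 or 5 (up to 0.14, without mare 2) and with a weight per day (0.117). Of 9 tested matrix genes, of 36 listed, 3 rose, 1 fell and 5 did not pass, and with the 10 arrays alone 0 passed.

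A defensin, serum amyloid A and granulysin were higher at day 16 than at day 3, with differences between mares. DEFB4B, an antimicrobial beta-defensin, was at -5.50, -2.13, -1.59, 2.88 and -0.50 at day 16, against -7.21, -4.56, -4.52, -5.35 and -6.77 at day 3, a rise of 4.31 ± 1.17 (adjusted p = 0.0143, and 0.048 with the 10 arrays alone) in all 5 mares. The largest difference was that of mare 4 and the smallest that of mare 1. SAA, which encodes serum amyloid A of the acute phase response, was at -4.47, -4.45, -4.35, 2.82 and 1.68 at day 16, against -5.05, -6.91, -6.58, -5.04 and -4.30 at day 3. In mares 4 and 5 it was high at day 16, and the day 16 values of mares 1, 2 and 3 lay within the range of day 3. SAA rose by 3.82 ± 1.23 (adjusted p = 0.0361, and 0.0766 with the 10 arrays alone), and its call ended without any 1 of 6 of the 10 arrays. Without the day 16 array of mare 4 the change of SAA was 2.58 (adjusted p = 0.124) and that of DEFB4B 3.32 (0.0525), which also did not pass without all arrays of mare 4 (0.0779) or mare 5 (0.0558), or with a weight per day (0.0625). Without the mare block, SAA had an adjusted p of 0.0723 and GNLY of 0.0563. With a weight per day these were 0.113 and 0.0778. SAA also did not pass without all arrays of mare 2 (0.068), mare 4 (0.13) or mare 5 (0.138). GNLY, the granulysin of cytotoxic lymphocytes, rose by 0.76 ± 0.25 (adjusted p = 0.0357, and 0.139 with the 10 arrays alone), but not without any 1 of 6 of the 10 arrays (up to 0.12, without day 16 of mare 4). The call of GNLY also ended without all arrays of mare 1, 3, 4 or 5 (up to 0.136, without mare 5). These 3 rose (1 with the 10 arrays alone) among 7 tested genes of antimicrobial defence, of 26 listed, and TLR2, TLR4, TLR9 and CD14 did not pass. None of the 3 had its highest mean of the cycle at day 16. DEFB4B averaged 0.14 on day 12, -1.37 on day 16 and -6.36 at ovulation. SAA averaged -0.50 on day 8, -1.26 on day 12 and -1.75 on day 16, and GNLY 0.44 at ovulation and 0.24 on day 16.

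IL1RN, the antagonist of the interleukin 1 receptor, was at -2.10, -1.95, -1.92, 6.08 and 2.29 at day 16, against -2.32, -3.30, -3.31, -3.10 and -1.92 at day 3. Mares 4 and 5 were high at day 16, and the other 3 mares lay close to the highest day 3 value. IL1RN rose by 3.27 ± 1.01 (adjusted p = 0.0286, and 0.169 with the 10 arrays alone), 8 of 8 further probes passed, and leaving out day 16 of mare 4 gave 1.71 (adjusted p = 0.0274). Its call ended without day 16 of mare 5 (adjusted p = 0.0745) and without day 3 of mare 2, 3, 4 or 5, with a lower p in these 4 cases. It also ended without all arrays of mare 5 (0.138), mare 2 (0.0519) or mare 3 (0.0507). FOS, an immediate early transcription factor, followed the same order of mares, with -0.80, -0.24, -0.08, 4.95 and 1.14 at day 16, against -1.20, -2.30, -2.63, -1.46 and -1.88 at day 3, and rose by 2.89 ± 0.80 (adjusted p = 0.0164, and 0.0738 with the 10 arrays alone). Without day 16 of mare 4 FOS was at 1.95 (adjusted p = 0.0509), and it did not pass without mare 2 (0.0536) or mare 5 (0.0579), or with a weight per day (0.0736).

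Chemokines of monocytes, T cells and neutrophils were higher at day 16. CCL2, which attracts monocytes, was at -2.44, -2.46, -3.02, -0.41 and -1.88 at day 16, against -4.03, -4.29, -4.45, -4.57 and -3.72 at day 3, without overlap, and rose by 2.17 ± 0.39 (adjusted p = 0.00074, and 0.0369 with the 10 arrays alone), as did 5 of 5 further probes. CXCL10, an interferon-induced chemokine of T cells, was at -1.38, -1.70, -2.32, -1.12 and -3.14 at day 16, against -3.87, -4.16, -3.58, -2.90 and -3.65 at day 3, and rose by 1.70 ± 0.31 (adjusted p = 0.000936, and 0.0379 with the 10 arrays alone), as did 4 of 4 further probes. The day 16 value of mare 5 lay within the day 3 range. IL1R1, the signalling receptor of interleukin 1, rose by 1.57 ± 0.38 (adjusted p = 0.00743, and 0.0391 with the 10 arrays alone), but not without mare 3 (0.0758). CXCL6, which attracts neutrophils, was at -3.37, -4.87, -3.80, -1.59 and -8.70 at day 16, against -7.90, -5.91, -6.81, -5.28 and -9.50 at day 3, and rose by 2.62 ± 0.82 (adjusted p = 0.0304, and 0.0477 with the 10 arrays alone). It was well above background on 4 of 5 arrays at day 16 and 3 of 5 at day 3, and its call ended without any 1 of 6 of the 10 arrays (up to 0.106, without day 16 of mare 4) and without the mare block (0.0646). The call of CXCL6 also ended without all arrays of mare 1 (0.159), mare 2 (0.0606) or mare 3 (0.12). After normexp the change of CXCL6 was 1.28 (adjusted p = 0.021). CCL8, another monocyte chemokine, rose by 1.08 ± 0.31 (adjusted p = 0.0192, and 0.11 with the 10 arrays alone), but not without day 3 of mare 1 (adjusted p = 0.0591) or day 16 of mare 4 (0.0516), where its change was 0.69. The call of CCL8 also ended without all arrays of mare 1 (0.0744) or mare 5 (0.0965). With a weight per day the adjusted p was 0.0775 for CXCL6 and 0.0595 for CCL8. Of 17 tested chemokine and cytokine genes, of 40 listed, 6 rose (CCL2, CXCL10, CXCL6, CCL8, IL1R1 and IL1RN), 0 fell and 11 did not pass, among them CCL5, CXCL9, TNF and IFNG. The median was 0.39, and with the 10 arrays alone 4 rose. Over the cycle, CXCL10 averaged -1.48 at ovulation and -1.93 on day 16, and CXCL6 -3.11 and -4.47, so both were higher at ovulation. The means of CCL2, CCL8, IL1R1 and IL1RN were lower at ovulation than on day 16.

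Of the genes of antigen presentation and of the interferon response, 5 were higher at day 16. B2M, the light chain of MHC class I molecules, was at 5.79, 5.90, 5.68, 6.08 and 5.59 at day 16, against 4.36, 4.58, 4.66, 4.73 and 4.24 at day 3. The 2 ranges lay well apart, and B2M rose by 1.29 ± 0.18 (adjusted p = 8.94e-05, and 0.0187 with the 10 arrays alone), as did its 1 further probe. OAS1, an antiviral sensor of double-stranded RNA, rose by 1.06 ± 0.29 (adjusted p = 0.0143, and 0.0383 with the 10 arrays alone), as did 3 of 3 further probes, and did not pass without day 16 of mare 4 (0.0516) or without mare 1 (0.055) or mare 3 (0.0551). Of 11 tested genes, of 37 listed, 5 rose, with TLR3 (0.75 ± 0.21; adjusted p = 0.0169, and 0.131 with the 10 arrays alone) and CXCL10, 0 fell and 6 did not pass, with a median of 0.83. With the 10 arrays alone 3 rose. TLR3 did not pass with a weight per day (0.0641). OAS2 was at 0.89 ± 0.33, MX1 at 0.83 ± 0.30 and CD74, the invariant chain of MHC class II, at 0.60 ± 0.32.

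Over the 33 tested genes of these 3 lists together, the highest day 16 value was that of mare 4 for 20 genes, of mare 1 for 8, of mare 5 for 3, and of mares 2 and 3 for 1 each. Over the 490 named genes mare 4 was the highest for 30.0% and mare 1 for 24.9%, and over all tested probes mare 4 for 20.5% and mare 1 for 31.4%. The median difference to day 3 over the 33 genes was 1.25 in mare 4 and between 0.34 and 0.75 in the other mares. Some markers of immune cells were also higher at day 16, but CCL5, GNLY and CD14 are themselves members of these lists. Of the T and NK cell list, 4 of 15 were tested, and their summed linear signal ranged from 7.69 to 20.5 times the 75th percentile at day 16 and from 2.95 to 5.70 times at day 3. GZMB was the brightest of the 4, and at day 16 it was highest in mare 5 (4.22) and lowest in mare 4 (2.46). The mean of the log2 levels of the 4 markers ranged from -0.52 to -0.09 at day 16 and from -1.09 to -0.74 at day 3. GZMB, a protease of cytotoxic cells, rose by 1.17 ± 0.24 (adjusted p = 0.00231, and 0.0568 with the 10 arrays alone; 0.116 without the mare block), and the T and NK cell marker CD2 was at -0.03 ± 0.25 and CCL5 at 0.39 ± 0.21. Of the macrophage list, 2 of 9 were tested, with a summed signal of 1.51 to 5.12 at day 16 and 1.10 to 1.49 at day 3. CD14 was at 0.83 ± 0.29 (adjusted p = 0.0537) and CD68 at -0.01 ± 0.27. The mast cell tryptase TPSB2, the 1 tested member of the neutrophil and mast cell list, was at -0.69 ± 0.33. The part of these cells in the defence genes' changes was not tested.

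**Figure D3:**
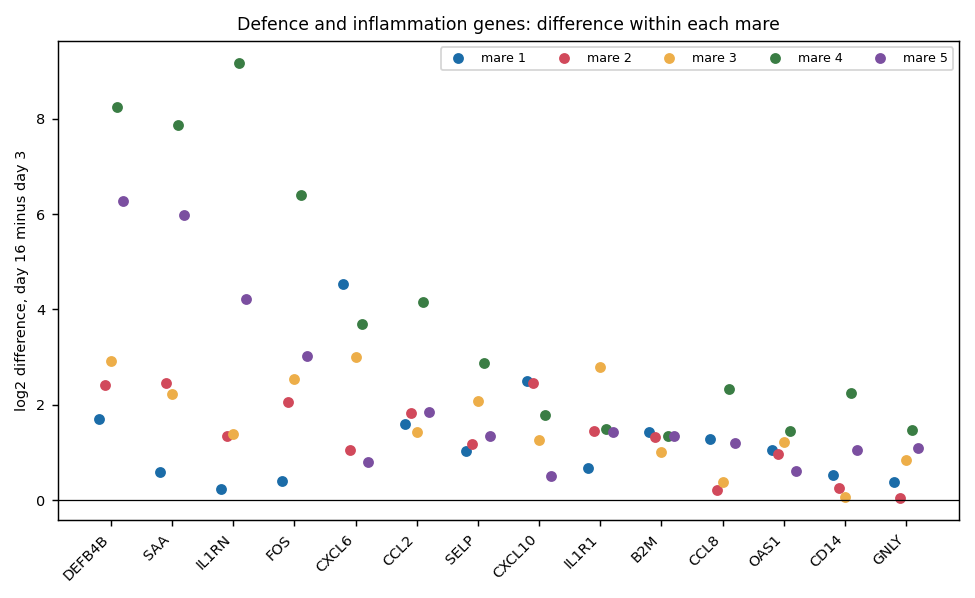
Difference between day 16 and day 3 within each mare (y axis, log2) for 14 genes, with 1 coloured point per mare. The genes are members of the defence, chemokine and interferon lists, together with FOS and SELP, which are in none of these lists. Mare 4 (green) has the largest difference for DEFB4B, SAA, IL1RN and FOS, while the 5 points of B2M lie close together.

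A lactate transporter, its partner and a hexokinase were lower at day 16, and a glucose transporter was higher. SLC16A1, a transporter of lactate and other monocarboxylates, was at 2.99, 1.78, 2.83, 1.49 and 2.17 at day 16, against 3.35, 3.71, 4.09, 3.93 and 3.81 at day 3, without overlap. SLC16A1 fell by 1.53 ± 0.25 (adjusted p = 0.000422, and 0.0426 with the 10 arrays alone), and BSG, basigin, which brings that transporter to the membrane, fell by 0.90 ± 0.15 without overlap (adjusted p = 0.000427, and 0.0683 with the 10 arrays alone). HK2, a hexokinase that starts glycolysis, was at -3.94, -3.78, -3.57, -3.62 and -4.37 at day 16, against -1.88, -2.44, -2.57, -3.47 and -2.70 at day 3, and fell by 1.24 ± 0.30 (adjusted p = 0.00693, and 0.0603 with the 10 arrays alone; 0.0694 with the slide added to the model). LDHB, a lactate dehydrogenase chain, fell by 0.54 ± 0.18 (adjusted p = 0.0388, and 0.221 with the 10 arrays alone) and LDHA was at -0.18 ± 0.24. SLC5A1, which carries glucose together with sodium, was at -0.81, 0.76, 0.83, -0.91 and 0.04 at day 16, against -1.32, -1.77, -1.61, -1.88 and -0.48 at day 3, and rose by 1.39 ± 0.29 in all 5 mares, though the ranges overlapped (adjusted p = 0.00259, and 0.0822 with the 10 arrays alone). Of 14 tested genes of transport and glucose use, of 36 listed, 1 rose, 5 fell and 8 did not pass, with a median of -0.12. With the 10 arrays alone 0 rose and SLC16A1 alone fell. The chloride channel CFTR was at -0.11 ± 0.34 and the fructose carrier SLC2A5 at 0.61 ± 0.38.

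PPARGC1A, a coactivator that drives the formation of mitochondria, was at -1.64, -0.76, -0.60, 0.82 and -0.13 at day 16, against -3.53, -2.81, -2.66, -2.07 and -3.75 at day 3. The groups did not overlap, and PPARGC1A rose by 2.50 ± 0.39 (adjusted p = 0.000262, and 0.013 with the 10 arrays alone), as did its 1 further probe. It was 1 of 3 tested genes of lipid handling, of 24 listed, with PLIN2, a coat protein of lipid droplets, at -0.23 ± 0.20 and CPT1A, which admits fatty acids to mitochondria, at 0.56 ± 0.27. FTL, the light chain of the iron store ferritin, was at 4.06 ± 0.24 at day 16 and 3.28 ± 0.23 at day 3 (SD, n = 5 each) and rose by 0.78 ± 0.18 without overlap (adjusted p = 0.00438, and 0.0658 with the 10 arrays alone). It was the 1 gene of 4 tested in iron handling, of 15 listed, that passed, and TFRC, the transferrin receptor, was at 0.33 ± 0.51.

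Among adhesion genes, a selectin was higher and 3 other molecules were lower at day 16. SELP, the P-selectin by which activated vessels and platelets hold leukocytes, was at -1.90, -2.49, -1.75, 0.28 and -2.53 at day 16, against -2.93, -3.67, -3.83, -2.61 and -3.88 at day 3. SELP rose by 1.70 ± 0.30 (adjusted p = 0.000712, and 0.0337 with the 10 arrays alone), most in mare 4. VCAM1, another vascular molecule that binds leukocytes, was at -0.22, -0.16, -0.63, -0.01 and -0.48 at day 16, against 0.31, 0.81, 1.01, 0.23 and 0.29 at day 3, and fell by 0.83 ± 0.18 without overlap (adjusted p = 0.00332, and 0.106 with the 10 arrays alone). ITGA2B, an integrin chain known from platelets, fell by 1.46 ± 0.23 (adjusted p = 0.000252, and 0.0508 with the 10 arrays alone) and CADM1, a cell adhesion molecule of the immunoglobulin family, by 1.04 ± 0.24 (adjusted p = 0.00472, and 0.0926 with the 10 arrays alone). Of 7 tested members, of 31 listed, 1 rose, these 3 fell and 3 did not pass, among them the gap junction gene GJB1 (-0.30 ± 0.27) and the hyaluronan receptor CD44 (0.25 ± 0.23).

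TAGLN, transgelin, an actin-binding protein of smooth muscle, was at -1.13, -0.34, 0.25, -0.53 and -0.87 at day 16, against -1.23, -2.90, -2.52, -2.90 and -1.96 at day 3, and rose by 1.78 ± 0.34 (adjusted p = 0.0013, and 0.0572 with the 10 arrays alone). It was the 1 gene that passed of 5 tested cytoskeleton genes, of 24 listed. TAGLN is also the 1 tested marker of 7 for smooth muscle, so that more muscle in a biopsy and a higher level per cell cannot be told apart. VEGFA, the vascular growth factor, was at -4.35, -3.34, -2.70, -2.09 and -4.26 at day 16, against -3.95, -5.27, -4.84, -4.47 and -5.34 at day 3. VEGFA rose by 1.43 ± 0.32 in 4 of 5 mares, mare 1 being the exception (adjusted p = 0.00432, and 0.0978 with the 10 arrays alone), as did 9 of 9 further probes, and was the 1 gene that passed of 4 tested vessel genes, of 28 listed. MET, the receptor of hepatocyte growth factor, was at 3.34, 4.78, 4.73, 5.02 and 5.02 at day 16, against 2.09, 2.40, 2.59, 3.09 and 2.78 at day 3, without overlap, and rose by 1.99 ± 0.28 (adjusted p = 0.000101, and 0.0124 with the 10 arrays alone), as did 2 of 2 further probes. It was the 1 gene that passed of 7 tested WNT and growth factor genes, of 38 listed, with the WNT antagonist FRZB at 0.21 ± 0.22, the WNT agonist RSPO3 at 0.63 ± 0.34 and IGF2 at -0.10 ± 0.26.

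Of the remaining genes with large changes, MAOB, which breaks down monoamines, was at -0.92, -0.74, 0.39, 0.84 and 0.61 at day 16, against -1.73, -2.68, -2.45, -1.70 and -2.13 at day 3, and rose by 2.17 ± 0.43 (adjusted p = 0.00149, and 0.0212 with the 10 arrays alone). Of the falls, H1-5, a linker histone, was at -5.48, -7.77, -7.32, -7.31 and -8.00 at day 16, against -2.53, -4.35, -5.17, -4.41 and -3.04 at day 3, and fell by 3.28 ± 0.52 without overlap (adjusted p = 0.0003, and 0.0128 with the 10 arrays alone). It was well above background on 3 of 5 arrays at day 16 and on 5 of 5 at day 3, and after normexp the change of H1-5 was -1.57 (adjusted p = 0.00122). UBE2S, a ubiquitin-conjugating enzyme that works with the anaphase-promoting complex, was at 2.06, 1.32, 1.86, 2.43 and 2.07 at day 16, against 4.04, 2.91, 2.51, 3.04 and 3.53 at day 3, and fell by 1.26 ± 0.26 (adjusted p = 0.00194, and 0.0459 with the 10 arrays alone). RNASEH2C, a subunit of the nuclease that removes RNA from DNA, was at -2.94, -2.97, -3.71, -3.98 and -2.78 at day 16, against -0.17, -2.18, -2.08, -2.52 and -0.74 at day 3, and fell by 1.74 ± 0.29 (adjusted p = 0.000413, and 0.0294 with the 10 arrays alone). EEF1G, a translation elongation factor, fell by 0.96 ± 0.21 (adjusted p = 0.00293, and 0.0433 with the 10 arrays alone), as did its 1 further probe. RLN, relaxin, a hormone of matrix remodelling, changed by -1.30 ± 0.33 (adjusted p = 0.00973, and 0.11 with the 10 arrays alone), and without mare 5 it was at -0.88 (adjusted p = 0.0861) and after normexp at -0.73 (0.0642). None of the 28 listed genes of the cell cycle had a named probe, so no count is given for them.

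**Figure D4:**
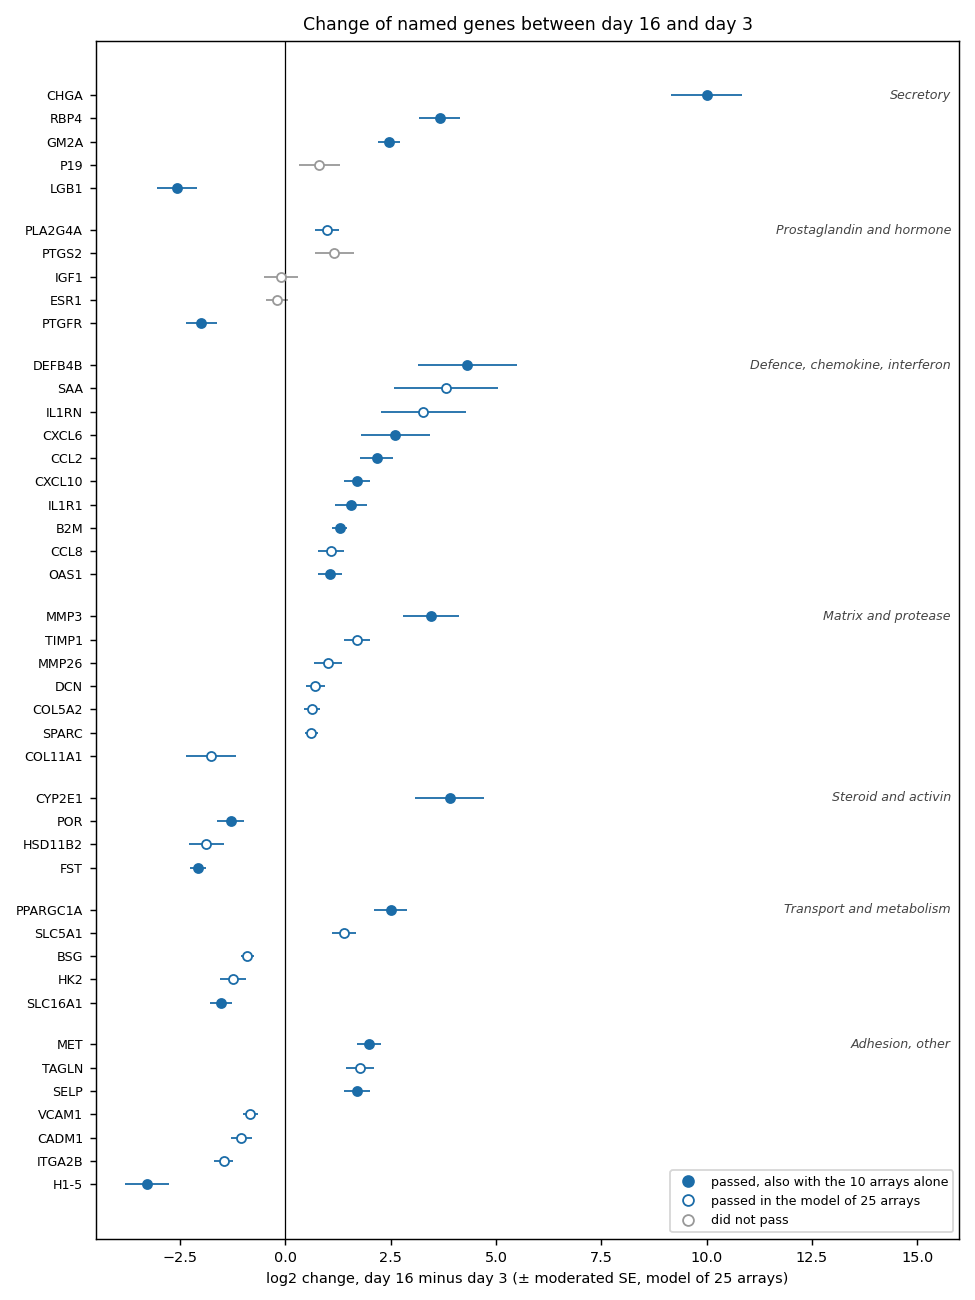
Change of 43 named genes between day 16 and day 3 (x axis, log2, day 16 minus day 3) with the moderated standard error of the model of 25 arrays, in groups by function. Filled points passed also with the 10 arrays alone, open blue points passed in the model of 25 arrays, and grey points did not pass.

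The tissue was checked by its markers. ESRP1, a splicing factor of epithelial cells, was bright on all 10 arrays and was at 2.99 ± 0.28 at day 16 and 2.97 ± 0.26 at day 3 (SD, n = 5 each), a change of 0.02 ± 0.16. PECAM1 of endothelium was at 0.20 ± 0.19 and DYDC1 of ciliated cells, above background on 4 and 3 of 5 arrays, at 0.45 ± 0.35. The 2 tested markers of stromal fibroblasts, of 9 listed, LUM and DCN, had a summed linear signal of 18.2 to 36.9 at day 16 and 8.63 to 25.1 at day 3. HBA2, a haemoglobin chain from blood, was at -0.66 ± 0.24 (adjusted p = 0.0612), and it passed as lower after quantile normalization (-0.72, adjusted p = 0.0394) and with the slide beside the mare in the model (0.0342). No listed marker of B cells had a named probe. The part of tissue composition in the changes above was not tested.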

How the data were processed

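Messenger RNA was measured on single-colour Cy3 arrays. Per the file headers, the deposited intensity of a spot is background-subtracted and spatially detrended within its array (Agilent Feature Extraction 10.7.3.1, per the submitters' processing notes), and the authors' value table equalled its processed signal on all 25 arrays. No normalization between arrays is recorded. Here, log2 intensities (from the deposited values) minus the 75th percentile of each array were used, outlier spots left out and spots of a probe averaged. Tests covered probes flagged well above background on 4 or more of the 5 arrays of day 16 or of day 3.

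limma 3.58.1 in R 4.3.3 fitted day and mare over 25 arrays. Arrays of 1 mare share a number, per the labels. Deviations from the day means correlated at a median of 0.241 within mares and -0.052 between mares (0.150 within mares across slides), and between days 16 and 3 at 0.06, 0.12, -0.24, 0.31 and 0.49 in mares 1 to 5. The day 16 and day 3 arrays of mares 1, 4 and 5 shared a slide, so mare and slide cannot be told apart in those pairs. The fit was also run on simulated data with known changes. These data had 1 spread per probe for all days, so they cannot show how the larger spread of days 16 and 3 affects the calls. Symbols came from a RefSeq gene table of the thoroughbred, by accession, for 1307 probes of 620 genes, and 42296 probes stayed unnamed. No coordinates are given, since the arrays' build is not given in the sources used here, and cross-hybridization of paralogues (P450, kallikrein, MHC) was not tested.

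Named were up to 15 rises and 15 falls with the largest change in all 5 mares, up to 4 called genes per list, hormone genes and tested markers. Some genes that meet this rule are not reported here. Other genes named with values are list members or were chosen after their values were seen. The comparison and the lists were chosen with earlier results of these data known. The alternatives were other normalization, background, filter, block, slide, scan day, trend, covariate, probe choice, samples and source, and each mare or array left out. A weight per day was added after seeing the data. Python 3.11.15 was used with pandas 2.3.3, numpy 2.4.6 and, for figures, matplotlib 3.10.9.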

Additional observations from a re-analysis of the deposited data

Results flagged for a closer look

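In 7 of 130 groups of 5 mares, 1 array lay far from the other 4 by Dixon's criterion, which chance meets in about 1 of 20 groups. At day 16, MET was lowest in mare 1 (3.34, against 4.73 to 5.02 in the others), H1-5 was highest in mare 1 (-5.48, against -8.00 to -7.31), GZMB was highest in mare 5 (4.22, against 2.46 to 2.79) and SELP was highest in mare 4 (0.28, against -2.53 to -1.75). At day 3, PECAM1 was highest in mare 4 (0.93, against 0.06 to 0.31), GNLY was highest in mare 2 (0.02, against -0.78 to -0.57) and CCL8 was highest in mare 5 (-0.06, against -0.84 to -0.69).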

How the results depend on the processing

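The fewest probes were called in the fit of the 10 arrays alone. That fit also has fewer arrays from which to estimate the error, and the reason for its lower count was not tested. 6308 probes (3150 higher, 3158 lower) and 101 named genes passed with all 25 arrays. With the 10 arrays alone these were 1767 (1013 and 754) and 32, and with a weight per day, 3772 (1848 and 1924) and 68. With 1 probe per target, where fewer probes were tested, there were 3271 (1453 and 1818), and with a 2-fold minimum 2851 (1683 and 1168). Leaving out 1 mare or 1 array gave 3610 to 6629 probes (1866 to 3471 higher, 1723 to 3211 lower) and 64 to 111 named genes, with the lowest count of probes without mare 5. Without the replicate block, the mare, 5072 probes passed. Of 51 called genes followed, 18 kept their call in every alternative run, 25 with the 10 arrays alone, 44 without the replicate block, 40 with mare and slide and 40 with a weight per day. Calls ended without the replicate block for SAA, CXCL6, DCN, GZMB, GNLY, MMP26, COL11A1, with normexp for SAA, MMP3, LGB1, RLN, COL5A2, COL11A1, and with mare and slide for SAA, IL1RN, CXCL6, RLN, HK2, GNLY, PLA2G4A, MMP26, COL5A2, COL11A1, OAS1. With a weight per day they ended for DEFB4B (0.0625), SAA, FOS (0.0736), CXCL6 (0.0775), POR (0.0519), DCN, GNLY, PLA2G4A, MMP26, COL11A1 and CCL8 (adjusted p up to 0.117, COL11A1). No called gene reversed. Genes near 0 that had not passed changed sign. Leaving out a mare or array moved ESR1 between -0.614 and 0.0812, IGF1 between -0.44 and 0.22, ESRP1 between -0.0711 and 0.112, CD2 between -0.23 and 0.22 and CD68 between -0.30 and 0.21. ESRP1 was at -0.0199 with slide in place of mare, -0.0758 with mare and slide and -0.0383 with mare and scan day, CD68 at 0.00476 with scan day, and DYDC1 at -0.0336 with normexp. The cause was not tested.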

Other observations

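Some further named genes outside the rule for the text passed both with all 25 arrays and with the 10 arrays alone. They were chosen here after their values were seen. S100A6, a calcium-binding protein, was at 6.08 ± 0.60 at day 16 and 4.38 ± 0.50 at day 3 (SD, n = 5 each), a rise of 1.70 ± 0.22 (adjusted p = 5.92e-05, and 0.0164 with the 10 arrays alone). NR5A2, a nuclear receptor that regulates steroid and bile acid genes, rose by 1.68 ± 0.24 (adjusted p = 0.000114, and 0.0205 with the 10 arrays alone). ARID5B rose by 1.49 ± 0.27, ANXA1, an annexin that dampens inflammation, by 1.31 ± 0.18 and TRIM8 by 0.90 ± 0.24, all in 5 of 5 mares. Of genes that passed with all 25 arrays and not with the 10 arrays alone, the monoamine oxidase MAOA was at 2.04 ± 0.34 at day 16 and 2.69 ± 0.22 at day 3, a change of -0.66 ± 0.21 (adjusted p = 0.036, and 0.119 with the 10 arrays alone); the other monoamine oxidase, MAOB, rose. S100G, the calcium-binding calbindin of absorbing epithelia, was at -2.87 ± 0.42 at day 16 and -0.52 ± 1.29 at day 3, a change of -2.34 ± 0.46 in 4 of 5 mares (adjusted p = 0.0015, and 0.0613 with the 10 arrays alone).

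Most probes that changed had no symbol (6064 of 6308). Among unnamed probes, 2 probes of 1 Ensembl transcript, ENSECAT00000025397, were higher. They rose by 10.20 ± 1.05 and 10.08 ± 0.97 (adjusted p = 7e-06 and 3.72e-06, and 0.0112 and 0.00408 with the 10 arrays alone), and were well above background on 0 and 1 of 5 day 3 arrays. On the mean of the mares, the probe with 0 was at least 324-fold higher, a bound that does not hold for each mare. Among the falls was ENSECAT00000018641 (-4.68 ± 0.81, adjusted p = 0.000592, and 0.0159 with the 10 arrays alone). It was well above background on 1 of 5 arrays at day 16 and 5 of 5 at day 3, so that the size of its fall is uncertain. ENSECAT00000015457, above background on 4 of 5 arrays at day 16 and 5 of 5 at day 3, also fell (-4.42 ± 0.79, adjusted p = 0.000756, and 0.0432 with the 10 arrays alone). Its differences in mares 1 to 5 were -6.97, -2.70, -2.17, -2.52 and -7.75, largest in mares 1 and 5.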
